A study of Mus musculus with 2 samples.

Results

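The genes described here carry names of the actin, tubulin and myosin cytoskeleton and its closest partners: actins, alpha-actinins, actin-related proteins and Arp2/3 subunits, cofilins and profilins, beta-thymosins, tropomyosins, transgelins, myosin heavy and light chains, unconventional myosins, myomesins and tubulins. They were chosen by a rule on gene names that uses no measured value, and comprised 180 probes under 104 gene names out of 41174 probes under 27962 names. A name match does not show that each product, such as those of Actr5, Actr6 and Actr8, acts in the cytoskeleton. The study set the RNA of microvesicles shed by 3T3-L1 adipocytes (ADMs) against the RNA of those same donor cells. 3T3-L1 is an established mouse preadipocyte line; all cells, donors of the vesicles included, were grown in high-glucose medium with 10% serum and made to differentiate with 3-isobutyl-1-methylxanthine (0.5 mM), dexamethasone (0.25 µM) and insulin (10 µg/ml). On day 11 after induction the vesicles were pelleted from the conditioned medium by ultracentrifugation and the cells were harvested, and 250 ng of each RNA was labelled. Each of 2 biological replicates was 1 array carrying both RNAs: the ADM RNA was in Cy5 and the cell RNA in Cy3 in replicate 1, and the dyes were exchanged in replicate 2. The sources used here do not say whether the replicates were separate cultures, so the p-values measure the spread between these arrays only, and having so few arrays limits the precision. Since the directions rest on the dyes named in the labels, each RNA is named for its label, ADM-labelled or cell-labelled.

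Actin polymerises into filaments that carry cell shape and movement. Profilin and the thymosins bind its monomers, the Arp2/3 complex starts branches, cofilin severs filaments, and tropomyosins, transgelins and alpha-actinins line or cross-link them. Myosins are motors that pull on actin, with light chains bound to the neck of the heavy chain, and tubulins form microtubules, the tracks of long-range transport. Preadipocytes have prominent actin stress fibres, and the differentiation of a preadipocyte into a rounded fat cell involves a reorganisation of actin and a fall in the synthesis of actin and tubulin.

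Cytoskeleton transcripts were detected in both RNAs. Of the 180 probes, 163 had a value on both arrays, and the other 17 lost a spot to an outlier flag on at least 1 array. A probe was counted as well above background where the scanner flagged it so on both arrays: 97 of the 163 probes (59.5%, beside 45.4% of 37976 probes of all genes) did so in the RNA labelled ADM and 68 (41.7%, beside 23.1%) in the cell-labelled RNA. Both RNAs reached it at 63 probes (38.7%, beside 20.9%). The ADM-labelled RNA alone reached it at 17 probes (10.4%, beside 13.1%), with the cell-labelled RNA below on both arrays, and the cell-labelled RNA alone at 5 (3.07%, beside 1.78%). The remaining 61 probes were not well above background in either RNA on both arrays. The comparison was therefore run on 102 probes of 73 genes, and 31 genes had no tested probe.

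**Figure D1:**
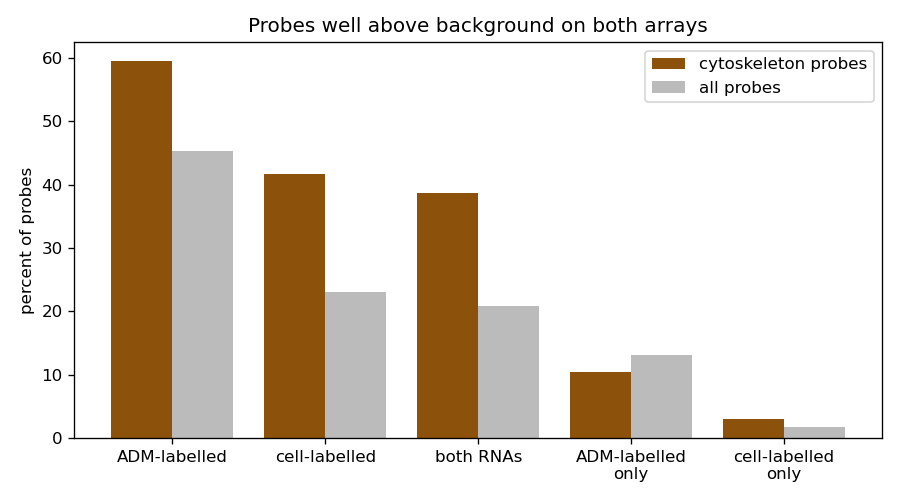
Percent of cytoskeleton probes (brown) and of all probes (grey) that were well above background on both arrays, by RNA; the 2 pairs of bars on the right are probes that met this in a single RNA and on neither array in the other. Cytoskeleton probes stood at 59.5% in the ADM-labelled and 41.7% in the cell-labelled RNA, and the share in the cell-labelled RNA alone was 3.07%.

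The raw brightness of the probes leaned strongly to the ADM-labelled RNA. Net signal, the mean spot intensity minus the local background in scanner units and with no normalization, had a median over the 102 tested probes of 1230.5 for ADM-labelled and 30.6 for cell-labelled RNA in replicate 1, and of 512 and 69.0 in replicate 2. All 18117 tested probes of the arrays leaned the same way, with medians of 545 against 17.3 and of 208 against 36.4. Of the cytoskeleton probes, 91 were brighter on each array in the ADM-labelled RNA, 7 were brighter in the cell-labelled RNA on both, and 4 changed order between the arrays. Since the same mass of each RNA was labelled, these signals give no amount per vesicle or per cell, and at a given level the number of vesicles or cells and the RNA in each cannot be told apart.

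**Figure D2:**
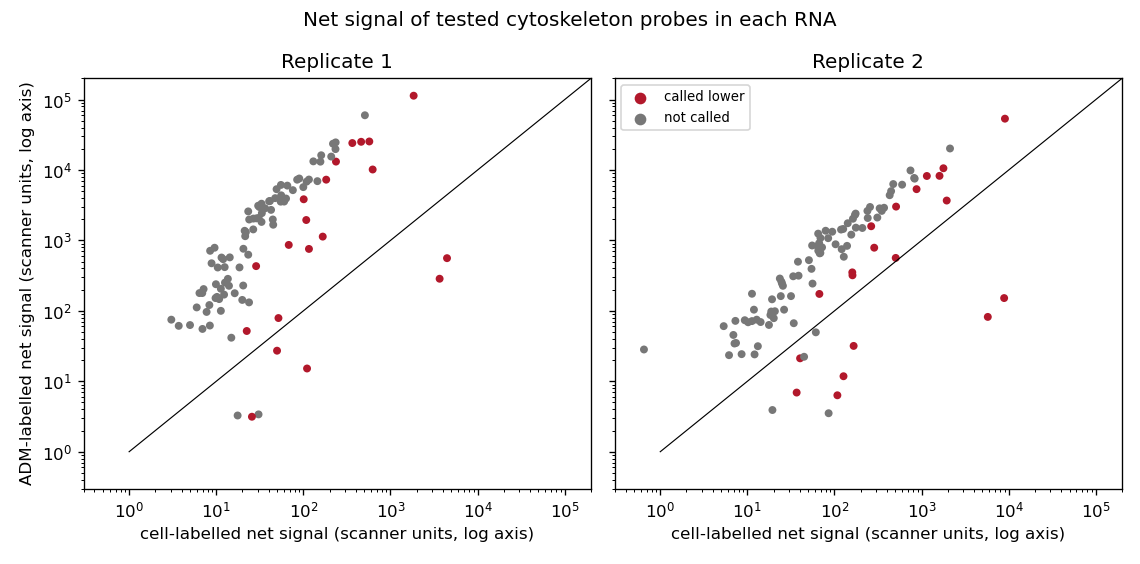
Net signal (scanner units, log axes) of the tested cytoskeleton probes in the cell-labelled RNA (x) and the ADM-labelled RNA (y), 1 panel per replicate, with the line of equal signal; red points are probes called lower in the ADM-labelled RNA after loess and grey points are not called. Most points lie above the line, Myo1e and Myom3 lie below it in both panels, and 1 probe of replicate 2 with a net signal at or under 0 is not drawn.

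Ratios were therefore read relative to probes of similar brightness. A positive log2 ratio means more signal in the ADM-labelled RNA once loess has set the trend of each array with brightness to 0, and ± is the SD of the 2 arrays. In limma with Benjamini-Hochberg adjustment at 0.05, 20 of the 102 tested probes (19.6%), of 18 genes, were called lower in the ADM-labelled RNA, beside 10.9% of all tested probes. Of these 20, 17 were well above background in both RNAs. The other 3 (Myo18b, Tuba3 and Myh3) passed the filter through the cell-labelled RNA alone, which favours a lower ratio. No cytoskeleton probe was called higher (0 of 102, beside 5.52% of all tested probes). At an unadjusted p under 0.05 in limma, 7 were higher and 31 lower, beside 15.7% and 20.1% of all tested probes. The nearest to a call among the positive ratios was Actn4, at an adjusted p of 0.0609 in limma. The median ratio of the tested cytoskeleton probes was -0.05 (-0.04 in replicate 1 and -0.03 in replicate 2) beside 0.07 for all tested probes. The range ran from -8.78 to 0.59, so the downward tail was long and the upward one short. At a ratio of 1 or more in size on both arrays, 12 probes were lower and 0 higher, beside 6.48% and 1.11% of all tested probes. The arrays had the same sign for 90 of the 102 probes (88.2%, beside 81% of all tested probes).

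The count of lower probes holds relative to probes of the same brightness and not on an absolute scale. With each array centred on its median in place of loess, the median ratio was 2.58 for the cytoskeleton probes and 2.04 for all tested probes, and 64 cytoskeleton probes were called higher and 3 lower (beside 59.5% and 1.46% of all tested probes). Of the 20 probes called lower after loess, 7 stayed negative with median centring and 13 turned positive, 4 of these below the median of all tested probes; 10 of the 13 were then called higher. With the scanner's own processed signals, which equal the deposited series table, 16 cytoskeleton probes were called higher and 18 lower (beside 32.0% and 14.2%). All 20 lower probes were still negative there and 13 still called. When spots with an outlying local background were kept, no probe of any gene was called in limma; among the cytoskeleton probes 0 were then higher and 5 lower at an unadjusted p under 0.05. The remaining settings gave 0 to 3 cytoskeleton probes called higher, except for a trended variance with 21 (beside 25.0% of all), and 16 to 25 called lower. Beside these counts stand, for all features and as higher and lower, 10.3% and 16.9% with an offset of 10, 10.1% and 16.4% with scaling between arrays, 2.93% and 5.06% with no filter, 12.1% and 21.7% with the filter on both RNAs, 5.13% and 9.58% with a robust variance, and at gene level 5.92% and 12.4% for the brightest probe and 5.01% and 11.4% for the median of probes. The lower calls of the trended variance stood beside 17.8%.

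**Figure D3:**
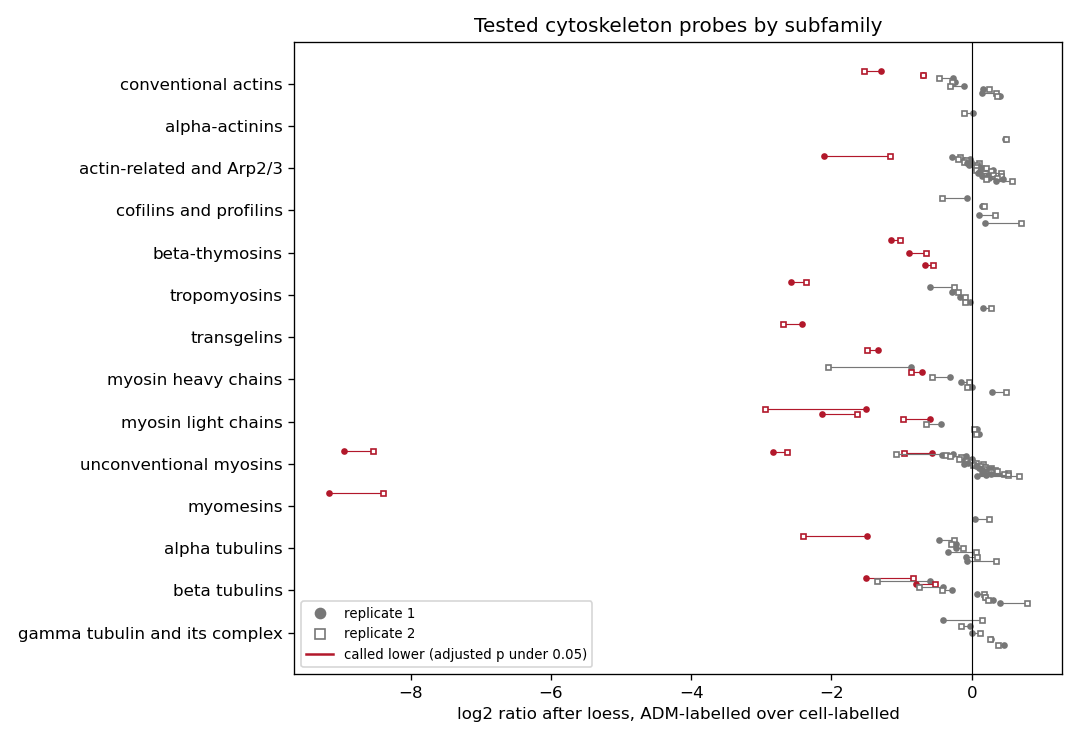
Log2 ratio after loess (x, ADM-labelled over cell-labelled) of each tested cytoskeleton probe in replicate 1 (filled circle) and replicate 2 (open square), joined by a line and grouped by subfamily; red marks the 20 probes called lower. Myo1e and Myom3 lie near -8.7 to the left of all others, all beta-thymosin and transgelin probes tested are red, and no probe is called higher.

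The conventional actins were split. Of 8 tested probes of 5 genes, 2 were called lower and 0 higher, with a median of -0.24 after loess and of 2.34 with median centring. Actb, the cytoplasmic beta-actin of all cells, had a probe at chr5:141936471-141936530 (mouse build mm7, as are all probe positions) whose net signal was 3110.5 against 30.3 in replicate 1 and 1077 against 84.7 in replicate 2 (ADM-labelled against cell-labelled). Its ratio was 0.39 ± 0.0363 (n = 2; limma, adjusted p = 0.0904). A second probe under the name Actb, placed by the array's annotation at chrX:147192950-147193009, gave 13172 against 237 and 5349 against 876. It was called lower at -0.69 ± 0.0112 (limma, adjusted p = 0.0329), and read -0.69 with processed signals (limma, adjusted p = 0.0893) and 3.70 with median centring. Under 1 gene name the probes thus had opposite signs. Actins are near-identical in sequence and no probe sequence was compared here, so this probe's identity is uncertain.

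Actg2, the gamma-actin of visceral smooth muscle (chr6:83548244-83548570), was the lowest of the actins. Net signals were 864 against 68.0 in replicate 1 and 352 against 160.2 in replicate 2. It remained brighter on each array in the ADM-labelled RNA, but less so than probes of similar brightness. Its ratio was -1.42 ± 0.17 (limma, adjusted p = 0.0144) after loess and 1.61 with median centring.

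The other muscle actins were not called. Acta2, the smooth muscle alpha-actin that also marks myofibroblasts, had 3 tested probes, with ratios of 0.25 ± 0.143, 0.20 ± 0.0548 and -0.36 ± 0.134. The brightest of them, at chr19:33949738-33952992 across an intron, gave 4373 against 55.7 in replicate 1 and 1755 against 142 in replicate 2. Acta1, the skeletal muscle actin, was dimmer, at 414 against 18.5 and 162 against 31.7, with a ratio of -0.26 ± 0.0215 (limma, adjusted p = 0.181). Actc1, the cardiac actin, gave 285 against 13.6 and 104 against 26.4 and a ratio of -0.21 ± 0.138 (limma, adjusted p = 0.277). Both probes cleared the background on each array in the ADM-labelled RNA, but in replicate 2 only in the cell-labelled RNA. Cytoplasmic gamma-actin (Actg1) was not among the gene names matched and is not analysed here.

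Many muscle-type actin and myosin genes carry a CArG box, the motif bound by serum response factor, close to the start. In the 250 bases before the start of each gene (RefSeq, build GRCm38.p6), read on both strands, the box was found in 10 of the 83 member genes that had a promoter in the table (12%), beside 1.62% of 27025 genes. The member genes holding it were Acta1, Actc1, Arpc4, Myh4, Myl3, Myl6, Myl7, Myl9, Myo1e and Myom1. Among genes with a probe called lower it was in 3 of 14 (Myl3, Myl9 and Myo1e), and among tested genes with no probe called in 4 of 43. The motif TATAAA, on either strand, was in 11 of the 83 (13.3%), beside 14.3% of all genes. A match is a string of letters and shows no binding. These 4 promoters, of 2 actins that were not called and 2 light chains that were, show where the box lies, in capitals, 5′ to 3′ on the strand of the gene. They are Acta1 at chr8:123894776-123895025 (minus strand), Actc1 at chr2:114052876-114053125 (minus), Myl9 at chr2:156775214-156775463 (plus) and Myl3 at chr9:110763428-110763677 (plus).
Acta1: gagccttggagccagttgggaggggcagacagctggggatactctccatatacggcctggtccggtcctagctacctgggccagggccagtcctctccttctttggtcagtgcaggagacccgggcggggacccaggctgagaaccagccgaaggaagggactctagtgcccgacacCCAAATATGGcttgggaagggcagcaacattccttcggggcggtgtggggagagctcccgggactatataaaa
Actc1: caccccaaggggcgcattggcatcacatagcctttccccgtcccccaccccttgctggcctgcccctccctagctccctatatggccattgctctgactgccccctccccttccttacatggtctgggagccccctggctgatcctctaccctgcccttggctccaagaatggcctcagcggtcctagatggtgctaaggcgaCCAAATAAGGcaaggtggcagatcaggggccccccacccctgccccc
Myl9: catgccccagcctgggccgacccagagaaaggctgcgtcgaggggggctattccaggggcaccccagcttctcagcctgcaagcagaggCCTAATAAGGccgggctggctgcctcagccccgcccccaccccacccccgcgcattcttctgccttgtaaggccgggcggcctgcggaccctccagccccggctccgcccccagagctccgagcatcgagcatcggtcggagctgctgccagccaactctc
Myl3: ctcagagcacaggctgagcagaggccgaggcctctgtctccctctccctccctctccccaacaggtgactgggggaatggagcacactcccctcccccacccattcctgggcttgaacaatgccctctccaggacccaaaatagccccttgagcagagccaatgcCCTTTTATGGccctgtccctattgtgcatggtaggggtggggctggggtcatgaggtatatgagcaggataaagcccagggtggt
The first base of the box lay 73 bases before the start in Acta1, 47 in Actc1, 161 in Myl9 and 85 in Myl3.

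Among proteins that cap, branch or bundle actin, most probes had small ratios that were not called. Actn4, a non-muscle alpha-actinin that cross-links filaments, gave net signals of 6141 against 55.3 in replicate 1 and 2407 against 175 in replicate 2. Its ratio of 0.48 ± 0.0151 was not called (limma, adjusted p = 0.0609). It passed the threshold with scaling between arrays (0.0338), among probes well above background in both RNAs (0.0495) and with a trended variance (3.05e-05). Actn1, the other non-muscle form, was near 0 at -0.04 ± 0.0951, with net signals of 239 against 9.92 and 87.4 against 18.4. The muscle forms Actn2 and Actn3 were not well above background in either RNA on both arrays.

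Actin-related proteins and Arp2/3 subunits were mostly slightly positive. Over 17 tested probes of 13 genes the median was 0.18 after loess and 3.62 with median centring, and 1 probe was called lower. Arpc3, a small Arp2/3 subunit, was highest at one of its probes (chr5:121637610-121638365), which gave 2983 against 31.3 in replicate 1 and 1082 against 69.1 in replicate 2. That probe read 0.46 ± 0.154 (limma, adjusted p = 0.0796), while its other probe, at 19817 against 234 and 7542 against 833, read -0.22 ± 0.0835. Neither was called.

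Arpc1b, the Arp2/3 subunit at chr5:144156562-144156621, was the exception and the brightest cytoskeleton probe tested. It gave 113577 against 1847 in replicate 1 and 53596 against 9061 in replicate 2. The arrays disagreed in size, at -2.10 and -1.17, and the mean of -1.63 ± 0.661 was called lower (limma, adjusted p = 0.0339). With processed signals the ratio was -0.28 (limma, adjusted p = 0.36) and with median centring 3.91, so both the call and the direction of this probe depend on the scaling. The probe of the other form of the subunit, Arpc1a, gave 7579.9 against 89.8 and 2987 against 256 and read 0.20 ± 0.106.

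Cofilins and profilins were not called at any of 4 tested probes (median 0.19 after loess, 3.06 with median centring). Cfl1, the non-muscle cofilin that severs filaments, gave 2862 against 36.4 in replicate 1 and 1373 against 79.2 in replicate 2 and read 0.45 ± 0.359. A second Cfl1 probe had a value in replicate 2 only, -1.22, so the probes of this gene did not have the same sign there. Pfn1, the ubiquitous profilin, read -0.24 ± 0.257 at 1832 against 33.1 and 752 against 121. Pfn2 read 0.22 ± 0.158 and 0.16 ± 0.0337 at its probes.

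The beta-thymosins, small peptides that hold actin monomers in reserve, were called lower at all 3 tested probes, with a median of -0.77 after loess and 3.38 with median centring. Tmsb4x, at chrX:161981798-161981857, gave 25163 against 461 in replicate 1 and 8265 against 1607 in replicate 2. Its ratio was -1.08 ± 0.0966 (limma, adjusted p = 0.019). Tmsb10 read -0.77 ± 0.168 and -0.61 ± 0.0816 at its 2 probes (limma, adjusted p = 0.0346 and 0.0438). The second of these gave 3843 against 101 and 1591 against 264. Both genes were bright in the ADM-labelled RNA, and their lower ratios were set against other bright probes; with processed signals Tmsb4x was -0.79 and the second Tmsb10 probe -0.78, which did not pass (limma, adjusted p = 0.0718 and 0.0868).

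Tropomyosins, the coiled coils that lie along actin, differed from one another. Tpm4, a cytoplasmic form at chr8:70676003-70676062, gave 10174 against 625 in replicate 1 and 3687 against 1944 in replicate 2. It was called lower at -2.47 ± 0.15 (limma, adjusted p = 0.00494), and kept this size with processed signals (-2.40); with median centring it read 2.09, close to the median of all tested probes. The other 5 tested tropomyosin probes, of Tpm1, Tpm2 and Tpm3, were not called and ranged from -0.43 to 0.21. The Tpm3 probes were at both ends of that range. The brighter one gave 6949 against 145 and 2912 against 371 and read -0.43 ± 0.243, and the dimmer one, detected in the ADM-labelled RNA alone, gave 179 against 6.42 and 72.1 against 7.29 and read 0.21 ± 0.0732.

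Both tested transgelins were called lower after loess (median -1.98) and were positive with median centring (median 1.56). Tagln, also called SM22-alpha, is an actin-binding protein of smooth muscle and of undifferentiated fibroblasts. Its tested probe at chr9:45888137-45888196 gave 1134 against 167 in replicate 1 and 565 against 505 in replicate 2, so in replicate 2 the RNAs were nearly equal in raw signal. The ratio was -2.56 ± 0.19 (limma, adjusted p = 0.00506), -3.35 with processed signals and 0.97 with median centring, below the median of all tested probes. Tagln2, the more widely expressed form, gave 1950.4 against 108 and 789 against 286 and read -1.41 ± 0.107 (limma, adjusted p = 0.013). The other Tagln probe and the probes of Tagln3, the neuronal form, were not well above background in either RNA on both arrays.

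Most sarcomeric myosin heavy chains were too dim to test. None of the 17 probes of the 7 genes Myh1, Myh2, Myh4, Myh6, Myh7, Myh8 and Myh13 was well above background in the same RNA on both arrays, although probes of Myh1, Myh7 and Myh8 were so in 1 RNA on 1 array; their net signals did not exceed 35.1 in the ADM-labelled and 71.7 in the cell-labelled RNA on either array. Among the heavy chains 6 probes of 4 genes were tested, with a median of -0.27 after loess and 2.20 with median centring. Myh10, the non-muscle myosin IIB, was the highest: it gave 3604 against 40.5 in replicate 1 and 1330.3 against 94.3 in replicate 2 and read 0.39 ± 0.139 (limma, adjusted p = 0.106). Its other tested probe read -0.03 ± 0.0536. Myh11, the smooth muscle heavy chain, read -0.09 ± 0.0742 at 762 against 20.5 and 316 against 38.7. Myh9, the non-muscle myosin IIA, had a bright probe with a value in replicate 1 only (13812 against 142, ratio 0.11). None of these 3 genes was called.

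Myh3 and Myh14 went the other way. A probe of Myh3, the embryonic skeletal heavy chain, was not well above background in either RNA. The other Myh3 probe was so in the cell-labelled RNA alone, at 3.14 against 25.7 in replicate 1 and 6.92 against 36.8 in replicate 2. That probe was called lower at -0.79 ± 0.111 (limma, adjusted p = 0.03). Myh14, the non-muscle myosin IIC, had a probe of the same kind at chr7:40803313-40803372, with 3.39 against 30.6 and 3.52 against 85.7. The arrays differed (-0.87 and -2.05), and the mean of -1.46 ± 0.831 was not called (limma, adjusted p = 0.0564). Its other probe was bright in the ADM-labelled RNA, at 628 against 23.3 and 244 against 56.0, and read -0.44 ± 0.181.

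Of the 6 tested light chain probes, of 5 genes, 3 were called lower (median -0.66 after loess, 1.32 with median centring). Myl9, the regulatory light chain of smooth muscle and non-muscle myosin II, gave 758 against 116 in replicate 1 and 320.0 against 161 in replicate 2 at chr2:156522455-156522514. Its ratio was -1.89 ± 0.352 (limma, adjusted p = 0.0144), -2.73 with processed signals and 1.21 with median centring. Myl3, the slow and ventricular essential chain, was dim at its tested probe: 79.1 against 51.8 in replicate 1 and 31.8 against 166 in replicate 2. The order of the RNAs changed between the arrays in raw signal, and the probe's ratio of -2.23 ± 1.02 had the widest spread of the called probes (limma, adjusted p = 0.038). Another Myl3 probe had a value in replicate 1 only, with a ratio of 0.11 from 144 against 7.35, so the probes of this gene differed in sign there. Myl4, the embryonic and atrial chain, was called at one probe (-0.78 ± 0.269) and not at the other (0.06 ± 0.0377), although both gave a like ADM-labelled signal in replicate 1 (432 and 413). The Myl4 probes overlap in position, at chr11:104693162-104693532 and chr11:104693149-104693519, so the lower call was not repeated by a probe at nearly the same place. Myl1, the fast skeletal chain, read 0.08 ± 0.0315 at 572 against 11.5 and 227 against 25.6. Myl6, the essential chain of non-muscle myosin, had values in replicate 2 only, at -1.26 and -0.52, and those probes were very bright there (77864 against 13347 and 62605 against 6801).

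Unconventional myosins, which carry cargo or tether membranes to actin, centred on 0 after loess (25 tested probes of 14 genes, median 0.02) and on 1.14 with median centring. A single probe stood far apart. Myo1e, a class I myosin that links membranes to actin, gave 560.4 against 4461 in replicate 1 and 152 against 8869.9 in replicate 2 at chr9:70399583-70399642, brighter in the cell-labelled RNA on both arrays. Its ratio was -8.74 ± 0.29 after loess (limma, adjusted p = 0.000556), -9.37 with processed signals and -4.48 with median centring. The loess ratio is larger than the net signals alone give, since loess sets a probe against others of its brightness. A second tested Myo1e probe, at chr9:70431497-70431556, gave 100.1 against 11.3 and 31.5 against 13.2 and read -0.06 ± 0.0485. The gene's probes therefore differed in direction of raw signal as well as in size, and the data do not say which one reads the Myo1e transcript.

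Myo18b, a class XVIII myosin of muscle, had a probe well above background in the cell-labelled RNA alone, at 15.2 against 110.3 in replicate 1 and 11.8 against 127 in replicate 2. That probe was called lower at -2.73 ± 0.129 (limma, adjusted p = 0.00376) and read -1.64 with median centring. Its other probe was not well above background in either RNA. Myo1a, the brush border myosin, was called at its only tested probe, at -0.77 ± 0.276 from dim signals of 51.8 against 22.4 and 21.2 against 40.3. The other 22 probes of the group were not called. Among them Myo6, the motor that moves to the minus end of actin, had the highest ratio, 0.38 ± 0.428, at a probe seen in the ADM-labelled RNA alone (96.6 against 7.75 and 40.9 against -1.87), and its brightest probe read 0.33 ± 0.269 at 2059 against 28.9 and 848 against 55.4. Myo1c, known for its part in insulin-driven glucose transporter traffic in adipocytes, read 0.09 ± 0.0513 at 1312 against 21.9 and 525 against 50.9. Myo5a, a vesicle carrier, read 0.00 ± 0.0753 and -0.19 ± 0.165.

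Myomesins link thick filaments at the M-band of striated muscle, and the lowest cytoskeleton probe of all was one of theirs. Myom3 gave 286 against 3669 in replicate 1 and 82.1 against 5759 in replicate 2 at chr4:135193880-135193939. Like the Myo1e probe, it was brighter in the cell-labelled RNA on both arrays. It read -8.78 ± 0.538 after loess (limma, adjusted p = 0.0011), -9.82 with processed signals and -4.75 with median centring. Myom1 was seen in the ADM-labelled RNA alone, at 121 against 8.34 and 45.5 against 6.91, and read 0.15 ± 0.141. With Myo18b, the Myo1e and Myom3 probes were the only cytoskeleton probes still called lower with median centring.

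The alpha tubulins were among the brightest transcripts and, with 1 exception, were not called (7 tested probes of 6 genes, median -0.18 after loess, 4.26 with median centring). The probe named Tuba6 on the array, at chr15:99023456-99023515, gave 59929 against 509 in replicate 1 and 20223 against 2121 in replicate 2. It read -0.35 ± 0.146 (limma, adjusted p = 0.129). Tuba1, now Tuba1a, gave 24686 against 235 and 9861 against 746 and read 0.14 ± 0.301. The exception was a probe of Tuba3 (now Tuba3a, a testis form) at chr6:125307868-125307927, seen in the cell-labelled RNA alone, with 27.2 against 49.9 and 6.33 against 108. It was called lower at -1.95 ± 0.652 (-1.49 and -2.41 on the arrays; limma, adjusted p = 0.0261) and read -1.18 with median centring. A second Tuba3 probe was bright in the ADM-labelled RNA, at 15523 against 209 and 6193 against 598, and read -0.14 ± 0.283. Tubulin genes are near-identical copies, so probes of one may read others.

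Beta tubulins held the only further lower calls. Over 9 tested probes of 6 genes the median was -0.35 after loess and 3.59 with median centring, and 2 probes were called lower. Both were of Tubb5, the most widely expressed beta tubulin. They gave 25439 against 572 and 10593 against 1782, and 24159 against 365 and 8229.8 against 1149.8. Their ratios of -1.18 ± 0.473 and -0.66 ± 0.197 had the same sign (limma, adjusted p = 0.0382 and 0.0475), and both were negative with processed signals (-0.82 and -0.44). With processed signals the first was no longer called (limma, adjusted p = 0.0751), and whether the second was called is not given here. At the other end Tubb2c, now Tubb4b, had the highest ratio of all cytoskeleton probes, 0.59 ± 0.276, from 3325 against 33.1 and 1249 against 65.0 (limma, adjusted p = 0.071). Tubb3, the neuronal form, read -0.97 ± 0.537 from 132 against 23.8 and 49.6 against 61.1 and was not called (limma, adjusted p = 0.0611). Tubb2a was close to 0 at both probes (0.12 and 0.19).

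Gamma tubulin and its ring complex, which start microtubules at the centrosome, were not called at any of 5 tested probes (median 0.06 after loess, 2.25 with median centring). Tubg1 was highest, at 5345 against 49.3 in replicate 1 and 2034 against 163 in replicate 2, with a ratio of 0.41 ± 0.0616 (limma, adjusted p = 0.0826). Tubgcp5 was lowest, at -0.14 ± 0.392, and its arrays had opposite signs (-0.41 and 0.14). Tubgcp3 read 0.27 ± 0.018 and Tubgcp2 0.06 ± 0.0872.

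Probes of the same gene share a target and are not replicates. Of 23 genes with 2 or more tested probes, 12 had ratios within 0.5 of each other, 4 spanned more than 1 (Myo1e, Tuba3, Actb and Myh14) and 1 more than 2 (Myo1e). No gene had probes called in opposite directions, and 4 had some but not all tested probes called (Myo1e, Tuba3, Actb and Myl4). Both tested probes of Tubb5 and both of Tmsb10 were called. Probes whose position on the genome is longer than the probe, and which therefore cross an intron, were called lower at 4 of 23 (median -0.04), beside 10.0% of all such probes (median 0.09). The rest were called lower at 16 of 79 (median -0.06), beside 10.9% (median 0.06). Among the probes spotted 10 times on each array, Actb on chromosome 5 had a spot-to-spot SD of 0.06 in replicate 1 and 0.08 in replicate 2, Tubb3 of 0.08 and 0.14, and an Acta2 probe of 0.13 and 0.19. For Tubb3 the gap between the arrays (-0.59 and -1.35) was larger than the spread of its spots within either, while the Acta2 probe (-0.27 and -0.46) had a gap of about the size of that spread.

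**Figure D4:**
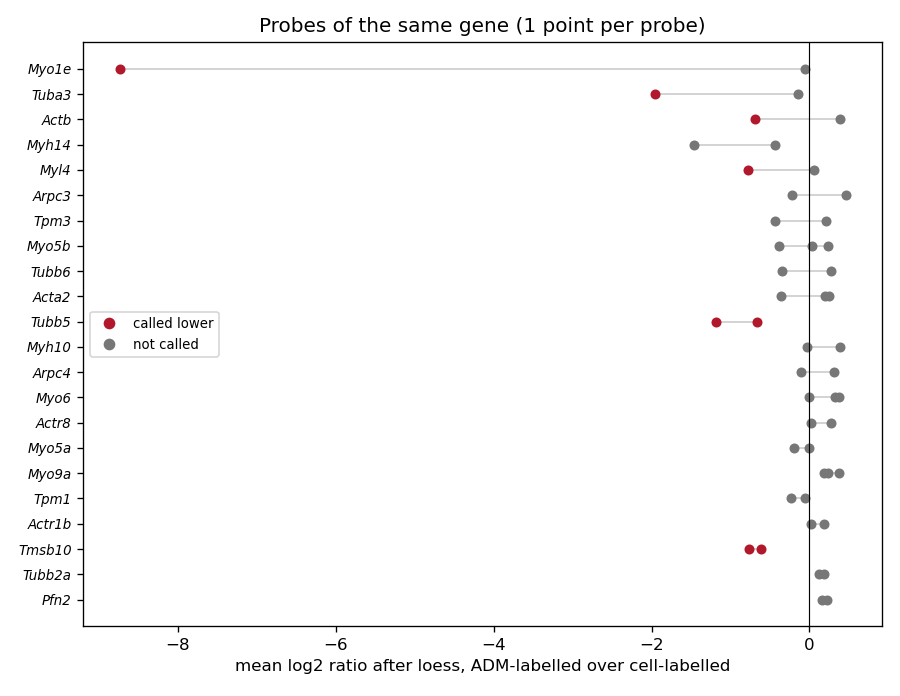
Mean log2 ratio after loess (x) of every tested probe of 22 of the 23 cytoskeleton genes with 2 or more, 1 point per probe and 1 line per gene; red points are called lower. The Myo1e probes lie at -8.74 and -0.06, the widest gap drawn, and both Tubb5 probes and both Tmsb10 probes are red.

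The probes seen in 1 RNA only are given by side. The sides were set by detection itself, so the direction of their raw signal is fixed by that choice and is not a result. In the ADM-labelled RNA alone there were 17 probes of 12 genes, and none was called. Their ratios after loess were small, from -0.06 to 0.38, and among the highest were probes of Myo6 (0.38), Myo9a (0.37 and 0.24) and Tubb6 (0.27). In the cell-labelled RNA alone there were 5, Myo18b, Tuba3, Myh14, Myh3 and Myo5b, with ratios of -2.73, -1.95, -1.46, -0.79 and -0.39, and 3 were called (Myo18b, Tuba3 and Myh3). The RNA that was not well above background has no measured level at these probes, so their ratios are fitted values. For the 5 probes seen in the cell-labelled RNA alone, the lowest signal that counted as well above background lay under the dim value itself, so it set no bound on the fold.

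The share of lower calls differed with brightness. Among probes with a mean log2 signal over 11, 6 of 10 cytoskeleton probes were called lower, beside 38.3% of all 843 tested probes in that range. Between 9 and 11 it was 6 of 27 (22.2%, beside 13.1% of all), between 7 and 9 it was 3 of 33 (9.09%, beside 9.22%) and under 7 it was 5 of 32 (15.6%, beside 8.40%). The bin over 11 is thinly filled, and the part of brightness in the calls was not tested.

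**Figure D5:**
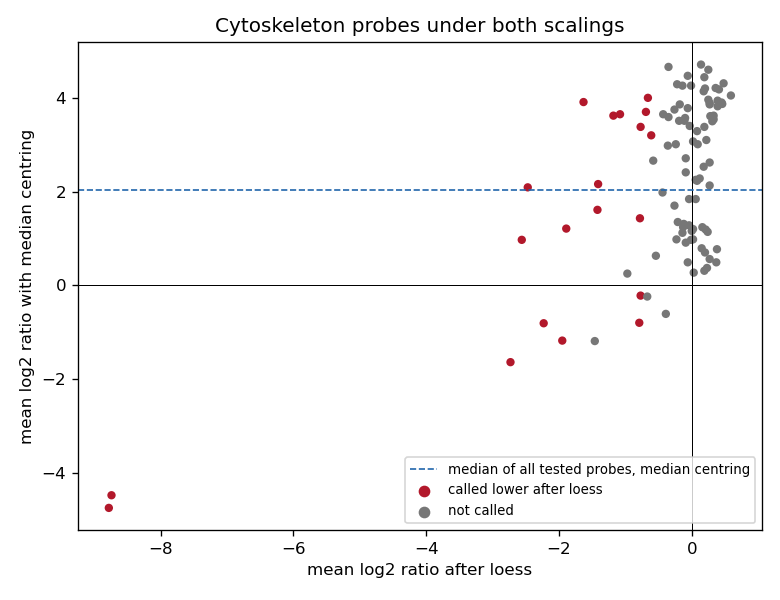
Mean log2 ratio of each tested cytoskeleton probe after loess (x) and with median centring (y); red points were called lower after loess and the dashed line is the median of all tested probes with median centring, 2.04. Of the 20 red points 7 lie below 0 on the y axis, with Myo1e and Myom3 lowest at -4.48 and -4.75.

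Regulators of actin that are not in these families were called in both directions. Of 72 tested probes of 43 genes, 7 were called higher and 6 lower (median 0.13 after loess, 2.54 with median centring), beside 5.52% higher and 10.9% lower of all tested probes, so neither count is read as particular to the list. Lima1, an actin cross-linker also called EPLIN, was called higher at both probes (0.84 ± 0.0752 and 0.93 ± 0.0285; limma, adjusted p = 0.0265 and 0.0224). Capzb, a subunit of the protein that caps filament ends, was called lower (-2.15 ± 0.117; limma, adjusted p = 0.00565). Diap2, a formin, was called lower at one probe (-3.37 ± 1.22), while its other 2 read 0.23 and 0.43. Flna, the filamin that cross-links actin, was called in opposite directions, at 0.99 ± 0.443 and -1.73 ± 0.676 (limma, adjusted p = 0.0468 and 0.0318). Among the microtubule partners 1 of 35 tested probes was called higher and 5 lower. The higher one was of Dync1h1, the dynein heavy chain (0.84), whose other tested probe read 0.19. Of the lower ones Ttl, the tubulin tyrosine ligase, was lowest at -2.27 ± 0.212 (limma, adjusted p = 0.00654). Next came Map1lc3a (-1.03) and a probe of Kif5b, a kinesin (-0.77), whose other tested probe read 0.32. Those counts too stood beside 5.52% and 10.9% of all tested probes. The median of that list was 0.04 after loess and 2.92 with median centring.

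Intermediate filament genes had 0 of 11 tested probes called by limma (1 higher and 1 lower at an unadjusted p under 0.05), with a median of 0.06 after loess and 2.18 with median centring. Further sarcomere genes had 0 of 7 called (0 higher and 3 lower at an unadjusted p under 0.05), with a median of -0.39 after loess and 0.40 with median centring. Among all tested probes 5.52% were called higher and 10.9% lower, and 15.7% and 20.1% were so at an unadjusted p under 0.05.

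Marker genes place these values. Adipocyte markers were detected in both RNAs: Fabp4, the fatty acid carrier, gave 492342 against 1739 in replicate 1 and 239808 against 24498 in replicate 2. Of the list 6 genes were detected in the ADM-labelled and 5 in the cell-labelled RNA, of 9 on the array. Adipoq and Cfd had a value in replicate 2 only (225971 against 7609 and 252196 against 7989), and Cidec had none. They lost spots to outlier flags and could not be counted, so the counts do not show them absent. Of the 8 tested adipocyte probes 2 were called higher and 2 lower. Fabp4 was among the latter (-0.59 ± 0.126 after loess, limma, adjusted p = 0.0486, and 5.37 with median centring). Markers of preadipocytes and fibroblasts were detected for 9 of 10 genes in the ADM-labelled and 5 in the cell-labelled RNA, and 7 of their 16 tested probes were called higher and 0 lower, with a median of 0.33 after loess and 3.72 with median centring (summed net signal 261207 against 893 and 99239 against 3132). Their part in the cytoskeleton ratios was not tested. S100a4, the preadipocyte and fibroblast gene not counted, had a value in replicate 2 only (30731 against 2651). Of the smooth muscle markers outside these families, 5 of 7 genes were detected in the ADM-labelled and 2 in the cell-labelled RNA (summed net signal 7386 against 169.7 and 2971 against 321), 1 of 6 tested probes was called higher, and Cnn1 and Myocd were not well above background. Skeletal muscle markers had a summed net signal of 485 against 159.8 and 187 against 218 over 17 probes, with 0 of 4 tested probes called (0 higher and 1 lower at an unadjusted p under 0.05), and Myod1, Myog and Ckm were not well above background in either RNA. Macrophage, endothelial and liver markers had no tested probe in any gene. Beside the marker calls stand 5.52% higher and 10.9% lower of all tested probes, and 15.7% and 20.1% at an unadjusted p under 0.05 in limma. Marker detection is counted by gene. By probe, 45.4% of all genes' probes were well above background in the ADM-labelled and 23.1% in the cell-labelled RNA.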

How the data were processed

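RNA of ADMs and donor adipocytes was measured on 2 Agilent 2-colour arrays. Per the file headers, the scans were read by Feature Extraction 10.5.1.1 and positions are those of mouse build mm7. The mean and background intensity were deposited without normalization. Per the file headers, the processed intensity and its log10 ratio were deposited after background subtraction and dye normalization. The series table as deposited holds log10 ratios equal within 1e-05 to the scanner's at all 45018 spots, with the sign of array 2 turned.

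Spots with an outlying local background (2144 and 1545) were left out before normexp correction (offset 50) and loess. Spots with their own outlier flag (203 and 182) and control spots had weight 0 in loess, and the flagged spots were left out after it. A spot may be in both counts. Ratios were turned to ADM-labelled over cell-labelled and spots of a probe averaged. A probe was tested where, on each array, at least 50% of its spots cleared the background by the scanner's flag in one and the same RNA. The mean was tested against 0 with limma 3.58.1 (R 4.3.3; lmFit, eBayes; Benjamini-Hochberg at 0.05) over all 18117 such probes, with 1 residual and 2.91 prior degrees of freedom. The method was tested on simulated data. No depth exists for arrays; precision is limited by their number.

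Members and lists were chosen with earlier results of these data known. Named were every conventional actin, the highest, lowest and brightest gene of each other subfamily, genes whose probes differ by over 2, the 5 largest one-RNA probes each way, and up to 3 called genes each way per pathway list; the other members named were chosen after their values were seen. Current names came from RefSeq accessions (134 of 180 probes). Exon and UTR annotation of the probe positions was not used here. Alternatives covered offset, processed signals, median centring, scaling, kept backgrounds, filters, variance models and gene-level fits. A few results are not reported here.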

Additional observations from a re-analysis of the deposited data

How the results depend on the processing

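Against 0 cytoskeleton probes called higher, offset 10 gave 1, processed signals 16, median centring 64, scaling between arrays 3, the filter on both RNAs 1 and a trended variance 21. Against 20 called lower, median centring gave 3 and kept outlying backgrounds 0, and the other settings gave 16 to 25. Of all probes tested 2969 were called; the count became 4923 with offset 10, 8372 with processed signals, 11043 with median centring, 4800 with scaling, 0 with kept backgrounds (158 at an unadjusted p under 0.05, limma) and 7754 with a trended variance. The cytoskeleton median of -0.05 became -0.07, 0.26, 2.58 and 0.00 with offset 10, processed signals, median centring and kept backgrounds, -0.03 without a filter, -0.10 with the filter on both RNAs, and -0.11 and -0.09 at gene level by the brightest probe and the median of probes; without replicate 1 or replicate 2 it was -0.03 and -0.04. Median centring turned 10 named probes positive: Actb on chromosome X 3.70, Actg2 1.61, Arpc1b 3.91, Tmsb10 3.20, Tmsb4x 3.65, Tpm4 2.09, Tagln 0.97, Tagln2 2.16, Myl9 1.21 and Tubb5 3.62. It leaves the trend with brightness in place. The causes of the other shifts were not tested. With median centring or a trended variance the prior degrees of freedom were infinite, so those p-values do not reflect a probe's own spread. With 1 array there is no residual degree of freedom, so calls have no leave-one-out value. The test is itself paired, since each array holds its pair of RNAs and gives 1 ratio per probe, and there is 1 group of arrays. At 17 tested probes the cell-labelled RNA was well above background on neither array, which limits what their ratios show. The same limit holds in part for a further 17, where it was so on 1 array only, among them Acta1, Actc1, Actn1 and Myl1.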
